A study of Mus musculus with 72 samples.

Results

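Gastrocnemius muscle of Bmal1-knockout mice that carried a muscle-targeted Bmal1 vector (KO+AAV) was compared between 40 and 10 weeks of age. The members were taken by their labels: 5 libraries at 40 weeks and 7 libraries at 10 weeks, 12 of the 72 samples of the series. This choice, and that of the gene lists below, was made with earlier results of these data known. All 12 came from male Bmal1-KO mice, in which the clock gene is disrupted in every tissue, and the mice had received AAV9 in the first week of life. The vector held an HA-tagged Bmal1 cDNA behind the CK6 promoter, which is active in muscle, so that other cells of these mice remained without Bmal1. Gastrocnemius of KO mice without vector (6 libraries at 10 weeks, 5 at 40 weeks) and of WT littermates (6 and 5 libraries) served as the age references. Muscle was taken near lights on (ZT1), and poly(A) RNA was sequenced at 2 sites, ICBR and Novogene. Replicates 1 to 4 of the 10-week KO+AAV group came from ICBR and replicates 5 to 7 from Novogene, whereas every 40-week library came from Novogene. The labels do not say whether the Novogene libraries of the 2 ages shared a run, so age and run cannot be told apart.

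BMAL1, the product of Arntl, pairs with CLOCK or NPAS2 and binds E-box sequences near the Per, Cry, Nr1d1 and Dbp genes. PER and CRY proteins repress the pair, the REV-ERB and ROR receptors set Arntl transcription, and factors such as DBP and TEF carry the rhythm to output genes. In skeletal muscle the clock is known to act on fuel use, structural genes and the expression of myogenic factors. The promoter of Ciart, a repressor of CLOCK:BMAL1, is shown because it holds the E-box 3 times. The sequence is RefSeq's, build GRCm38.p6, 250 bases up to the transcription start, chr3:95882229-95882478 on the minus strand, with CACGTG in capitals:
Ciart: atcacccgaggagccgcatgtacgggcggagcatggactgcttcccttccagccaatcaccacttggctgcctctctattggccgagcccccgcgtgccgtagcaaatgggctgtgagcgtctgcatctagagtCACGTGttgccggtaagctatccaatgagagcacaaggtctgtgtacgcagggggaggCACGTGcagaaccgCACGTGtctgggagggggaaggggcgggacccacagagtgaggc

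The unit throughout is the normalized count, the deposited number of reads on a gene after division by a size factor for the library. Reads on genes ran from 10458393 to 13610317 in the 40-week libraries, from 11616011 to 11811506 in the Novogene 10-week libraries and from 32563431 to 37712440 in the ICBR 10-week libraries, so low-expressed genes are measured more precisely at ICBR. A log2 fold change is 40 minus 10 weeks on log2(normalized count + 1), with the site difference removed by a term estimated from the 10-week groups, which had libraries from both sites. A gene was called where its adjusted P in limma was under 0.05, and "rose" or "fell" refers to such genes only. Errors after ± are SE for fold changes.

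The 10 skeletal muscle identity genes summed to between 1827470 and 3291933 normalized counts in all 12 libraries, and none of them was at 0. Markers of other cell types varied between single libraries (the plot of summed marker levels). The 18 macrophage markers summed to 12098 in 10-week replicate 5 and to between 1048 and 3185 in the other 10-week libraries, against 1077 as the median at 40 weeks. In 40-week replicate 2 the macrophage, fibroblast and lymphocyte sums were the lowest of all 12 libraries, at 320, 3112 and 166. The fibroblast and tenocyte sum was 29166 in 10-week replicate 4 and between 7766 and 14083 in the other 10-week libraries. Forty-week replicate 2 was also the farthest from the rest of its group over all tested genes, by a root-mean-square log2 difference of 0.819 against 0.489 to 0.567 for the others. For most gene lists the counts are therefore given with all 12 libraries and again without those 3. In bulk tissue, fewer cells of a type and less RNA per cell cannot be told apart.

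**Figure D1:**
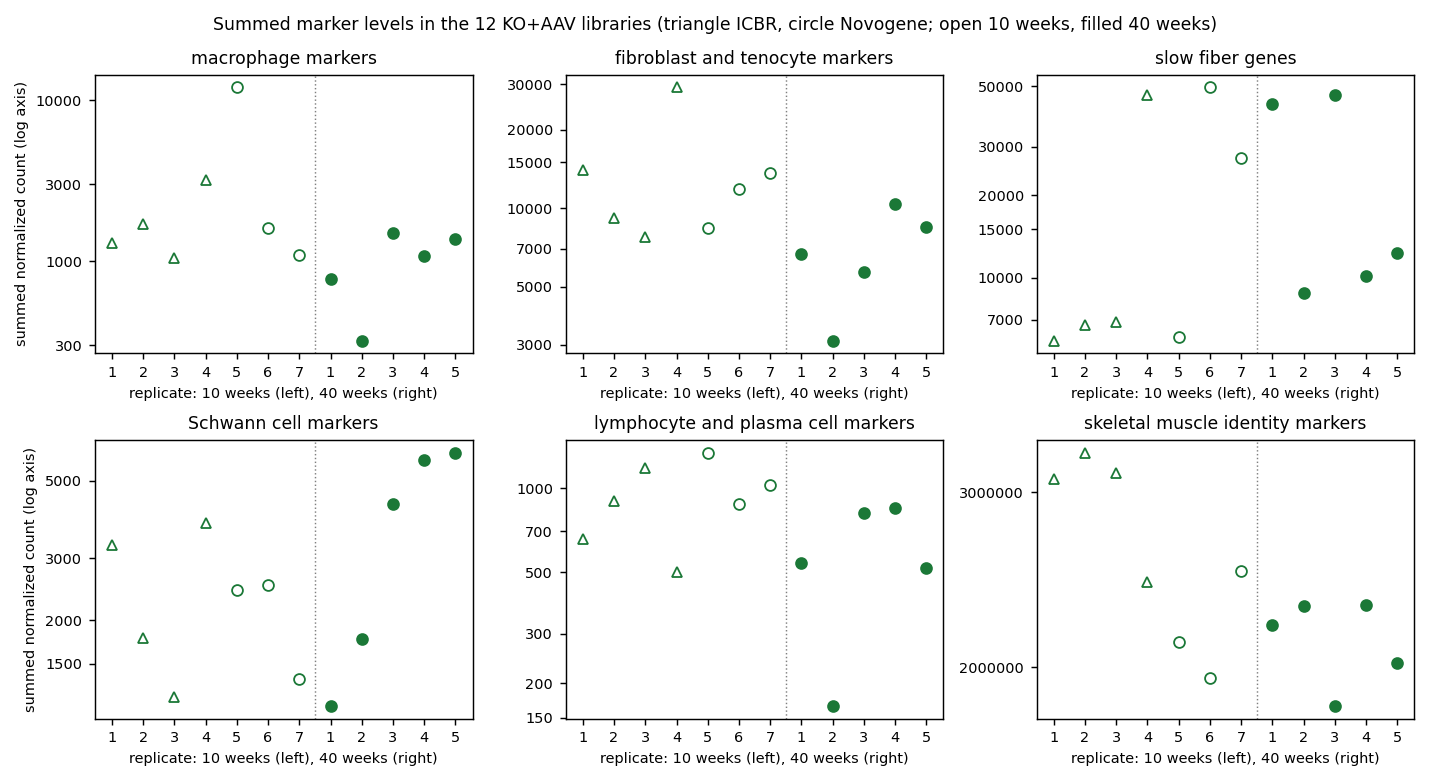
Summed normalized counts (log axis) of 6 fixed marker lists in each KO+AAV library, by replicate number, with 10 weeks left and 40 weeks right of the dotted line. Ten-week replicate 5 stands at 12098 for macrophage markers, 10-week replicate 4 at 29166 for fibroblast and tenocyte markers, and slow fiber genes are spread from 5884 to 49573 without a split by age.

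Of 16199 genes tested in KO+AAV, 1382 changed between 10 and 40 weeks, which is 8.53% of the genes tested, 757 of them higher (4.67%) and 625 lower (3.86%) at 40 weeks. By the unadjusted threshold of P under 0.01 that the study used, 1958 genes differed, 1041 higher and 917 lower. The median log2 fold change of all tested genes was -0.0163. Within the Novogene libraries, where no site term is needed, 361 genes passed the adjusted threshold, and without the 3 libraries named above 649 passed. Leaving out 40-week replicate 2 alone gave 702.

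The membrane-bound chemokine Cx3cl1, also called fractalkine, had the smallest P of the 10 genes named for a rise. It ranged from 26.2 to 76.5 normalized counts at 10 weeks, with a median of 46.8. At 40 weeks its 5 libraries read 284, 251, 468, 369 and 442, all above every 10-week library, and the rise was 2.72 ± 0.28 on the log2 scale (adjusted P = 3.63e-07). Nfe2l1, a transcription factor that sustains proteasome genes, was at 9478 to 11952 (median 10983) in young muscle. Its 40-week libraries read 19605, 23960, 23095, 21007 and 27954, and no library overlapped between the ages (log2 fold change 1.11 ± 0.12, adjusted P = 6.17e-07). Sln encodes sarcolipin, a peptide that uncouples calcium pumping by SERCA from ATP use. Sln libraries spanned 11.2 to 221 at 10 weeks (median 22.4) and read 669, 2121, 4717, 1694 and 1487 at 40 weeks, for a rise of 5.84 ± 0.72 (adjusted P = 5.34e-06). The 2 highest 10-week values, both from ICBR, stayed below the lowest 40-week value.

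The other 7 of the 10 genes named for a rise were Ptpn14, Trp63, Ripply1, Cpne2, Cntn2, Tnfrsf23 and Dupd1. Ripply1, which encodes a transcriptional corepressor of segment formation, was at 0 to 16.4 at 10 weeks (median 1.32) and at 30.3, 50.5, 116, 62.6 and 76.7 at 40 weeks. Its highest 10-week values came from 2 ICBR libraries, and the ages did not overlap (log2 fold change 5.17 ± 0.62, adjusted P = 4.44e-06). Cpne2, a calcium-dependent phospholipid-binding copine, moved from 242 to 988 (median 384) to 40-week readings of 1474, 2554, 2079, 2454 and 3152 (2.57 ± 0.31, adjusted P = 4.66e-06). Cntn2 codes for a neuronal adhesion molecule and was close to the limit of detection at 10 weeks, with 0 to 4.97 normalized counts. At 40 weeks Cntn2 read 19.1, 18.2, 36.6, 45.8 and 46.7 (4.21 ± 0.52, adjusted P = 5.59e-06). Trp63, a p53-family factor, rose by 1.74 ± 0.20, and the decoy TRAIL receptor gene Tnfrsf23 rose by 2.06 ± 0.27. Ptpn14 (a tyrosine phosphatase) and Dupd1 (a dual-specificity phosphatase of muscle) rose by 1.10 ± 0.12 and 1.75 ± 0.23.

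Of the 10 genes named for a fall, Klhl33, a member of the Kelch-like family, had the smallest P. Klhl33 ranged from 2966 to 5917 at 10 weeks (median 5459) and read 1870, 992, 1045, 1421 and 967 at 40 weeks, with no overlap (-2.08 ± 0.28, adjusted P = 1.79e-05). Actc1 encodes cardiac alpha-actin, an isoform of developing skeletal muscle. It was at 13029 to 48928 in young muscle (median 25154) and at 2471, 626, 5424, 4399 and 1463 in old muscle, so that even the highest 40-week library was below the lowest 10-week one (-3.71 ± 0.50, adjusted P = 1.89e-05). Castor2 went from 1474 to 1993 (median 1713) to 991, 647, 835, 972 and 852 (-1.09 ± 0.16, adjusted P = 3.67e-05). Rmi2, a subunit of the BLM helicase complex, fell by 2.65 ± 0.37, and Hacd1, an enzyme of very-long-chain fatty acid elongation that is expressed in muscle, fell by 1.60 ± 0.24. The cell-surface proteoglycan gene Sdc2 fell by 1.66 ± 0.25 and the membrane protein gene Itm2a by 1.52 ± 0.22. Mlf1, Frmd4b and the imprinted adaptor gene Grb10 completed the set of 10, at -1.34, -1.30 and -0.9972. Both sets of 10 were chosen by their P and for not overlapping within Novogene, so their size and separation are a description.

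**Figure D2:**
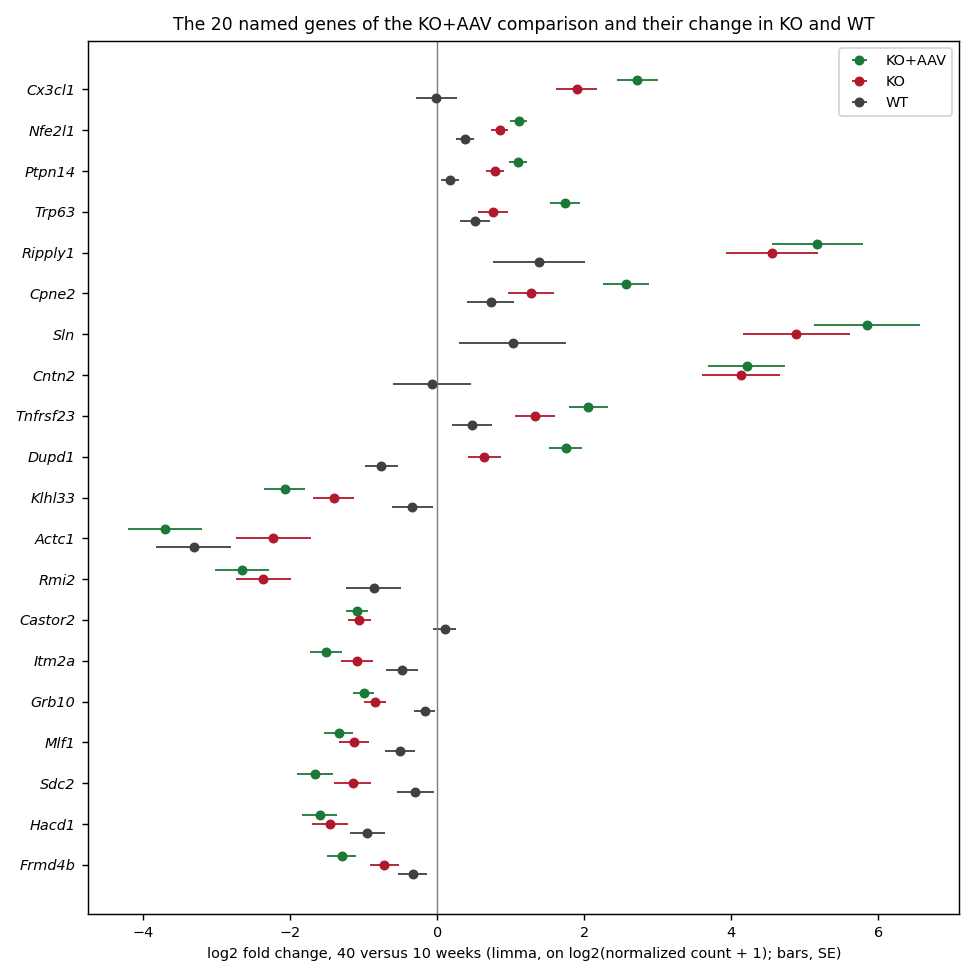
Log2 fold change (40 versus 10 weeks) with SE for the 10 named genes that rose and the 10 that fell in KO+AAV, beside the same change in KO and WT. Points for KO lie on the same side of 0 as those for KO+AAV for all 20 genes. WT points lie nearer to 0 than those of KO+AAV for all 20, with Actc1 the closest to KO+AAV at -3.31 and Dupd1 the farthest on the other side of 0 at -0.76.

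Of 29 clock genes 2 were called (6.9%), a share near the 8.53% of all genes. Among the 3 core activators, the 8 period and cryptochrome repressors and the 3 REV-ERB and ROR receptors described, 0 members were called by limma. Among the outputs, 2 of 15 PAR bZIP factors and other outputs fell. DESeq2 on the recovered reads, as another tool, called 3 of these 29 genes and edgeR called 2, and 13 of 29 had an unadjusted limma P under 0.05, as had 3867 of all 16199 genes. The median log2 fold changes of the 4 lists were 0.16, -0.11, -0.065 and -0.22, against -0.0163 over all genes.

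Arntl was read first, because it is the targeted gene and the vector's cargo. Its exons lie on the plus strand of chromosome 7 between 113207465 and 113314126 (GRCm38), and a read from the disrupted locus cannot be told apart here from a read of the vector cDNA. At 10 weeks the 7 KO+AAV libraries ranged from 169 to 281 normalized counts with a median of 222, and at 40 weeks they read 298, 268, 317, 359 and 313. The 40-week values lay above all 3 Novogene 10-week values (204, 218 and 169), and 1 of them lay below the highest ICBR value. An exact two-sided permutation test within the Novogene libraries gave a difference of 0.66 on the log2 scale, P = 0.0179, the smallest P that 56 arrangements allow. In limma across all genes the change was 0.56 ± 0.21, adjusted P = 0.0854, and was not called. KO muscle without vector held 196 to 297 normalized counts at 10 weeks and 308 to 1039 at 40 weeks. The 1039 was KO 40-week replicate 2, and the other KO libraries at 40 weeks read 381, 395, 312 and 308. With all KO libraries the age change in KO was called in limma (0.98 ± 0.21, adjusted P = 0.00439). The change in KO+AAV minus that in KO was -0.42 ± 0.27 (adjusted P = 0.93). In WT muscle Arntl ranged from 403 to 634 and from 480 to 608. The ranges of KO+AAV and KO overlapped at both ages.

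Of the BMAL1 partners, Clock was at 745 to 953 (median 881) and then 1081, 1180, 1043, 740.1 and 946, and Npas2 had a change of -0.023 ± 0.24. Per1 was highly variable at 40 weeks, with readings of 277, 1453, 287, 459 and 1085 against 133 to 612 at 10 weeks, and its change of 0.77 ± 0.63 was within that spread (adjusted P = 0.489). Per2 read 159, 210.5, 128, 209 and 242 at 40 weeks, which replicates 3 and 5 placed just outside the 10-week range of 130.2 to 232. For Per3 the change was -0.63 ± 0.36 (adjusted P = 0.288). Cry1, which encodes the strongest repressor of the complex, was 380.4 to 573 and then 426, 309, 342, 409 and 409 (adjusted P = 0.117), while Cry2 read 756, 2515, 877, 1067 and 935 at 40 weeks, its highest value coming from replicate 2. None of these reached the threshold, and neither did Ciart (0.17), Bhlhe40 (-0.39) or Bhlhe41 (-0.29).

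The REV-ERB genes Nr1d1 and Nr1d2 were not called, with log2 fold changes of -0.065 ± 0.17 and -0.46 ± 0.19, nor was Rora, at 0.14 ± 0.30. Nr1d2 was called as lower without the 3 libraries (adjusted P = 0.0171), and its 40-week replicate 2 had read 1018, the highest of that group. Wee1, a cell cycle kinase gene driven by CLOCK:BMAL1, fell. Wee1 ranged from 39.6 to 91.04 at 10 weeks (median 52.4) and read 27.1, 9.82, 34.4, 50.4 and 35.96 at 40 weeks (-1.33 ± 0.29, adjusted P = 0.00353). Its 40-week libraries were all below the 3 Novogene 10-week libraries, and the fall was still called within Novogene (adjusted P = 0.0386) and without the 3 libraries (adjusted P = 0.0286). In KO muscle without vector Wee1 also fell, by 1.29 ± 0.29 (limma, adjusted P = 0.00717). The change of Wee1 in KO+AAV minus that in KO was -0.042 ± 0.38. Tspan4, a tetraspanin gene, fell by 0.59 ± 0.18, a call that was lost within Novogene (adjusted P = 0.134). Dbp, the output factor most directly tied to E-boxes, read 266, 115, 259.6, 475 and 235 at 40 weeks against 249 to 536 at 10 weeks (-0.84 ± 0.31, adjusted P = 0.0867). Tef and Hlf, of the same PAR bZIP family, stood at -0.34 ± 0.13 and -0.32 ± 0.28, and their antagonist Nfil3 at 0.65 ± 0.27. The muscle outputs Usp2, Tcap, Myod1, Pfkfb3, Tead4, Aebp1, Car3 and Lonrf3 were not called, with log2 fold changes from -1.01 (Lonrf3) to 0.79 (Myod1). Myod1 did not overlap between the ages, at 352 to 632 and then 724, 633, 728, 681 and 864, yet its adjusted P was 0.177.

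**Figure D3:**
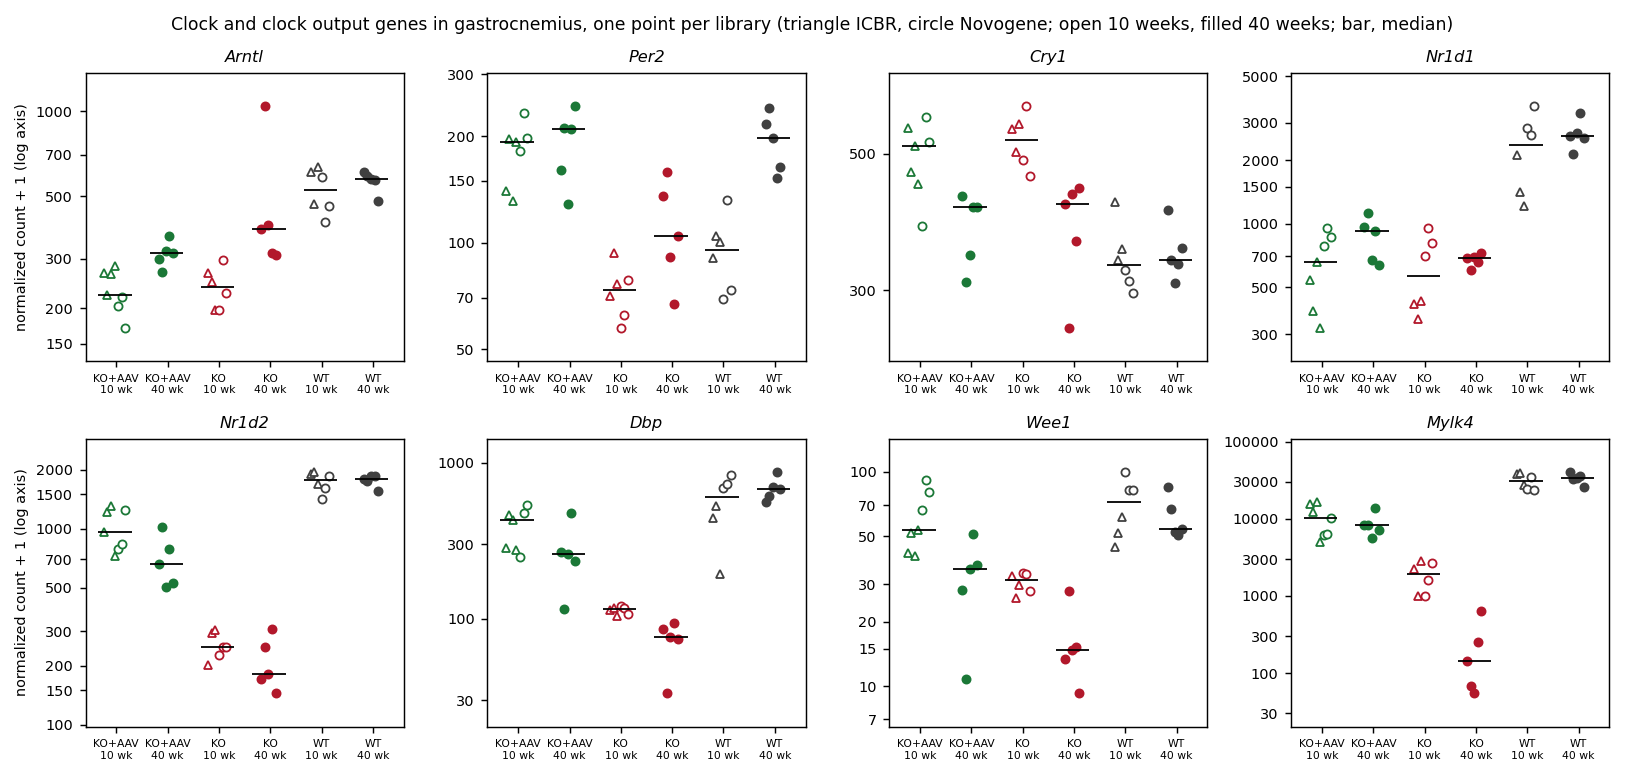
Normalized counts plus 1 (log axis) of 8 clock and clock output genes in every gastrocnemius library, by genotype and age, with the median as a bar. In KO+AAV the 40-week points of Per2, Nr1d1, Dbp and Mylk4 overlap the 10-week points, whereas Mylk4 in KO lies between 982 and 2845 at 10 weeks and between 53.6 and 639 at 40 weeks.

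Mylk4, a myosin light chain kinase gene known as a muscle clock output, was the gene whose age change differed between KO+AAV and KO. In KO+AAV it ranged from 5021 to 16462 at 10 weeks (median 10130) and read 8291, 8347, 5598, 13675 and 7052 at 40 weeks, a change of 0.037 ± 0.44 (adjusted P = 0.972). In KO the range was 982 to 2845 at 10 weeks, and the 5 libraries at 40 weeks read 143, 66.3, 53.6, 248 and 639 (-3.30 ± 0.44, adjusted P = 0.000103). WT libraries held 23639 to 40587 at both ages together. The difference in age change, KO+AAV minus KO, was 3.34 ± 0.57 (limma interaction, adjusted P = 0.0306). This was 1 of 16199 genes (0.00617%) past the adjusted threshold, with 835 genes at an unadjusted P under 0.05. The call was lost within Novogene (difference 3.56, adjusted P = 0.974), in edgeR (2.82, adjusted P = 0.15), without the 3 libraries (3.05, adjusted P = 0.356) and without KO 40-week replicate 2 (3.04, adjusted P = 0.0553). It was also lost in 7 of the 12 fits that left out 1 KO+AAV library, with adjusted P up to 0.131, and DESeq2 kept it at 0.0114.

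Of 27 tested genes of the heat shock response and of muscle chaperones, 14 rose, 0 fell and 13 did not pass, against 4.67% higher and 3.86% lower over all genes, and the median log2 fold change of the list was 0.42 against -0.0163 over all genes. The inducible Hsp70 gene Hspa1a ranged from 57.5 to 152 at 10 weeks (median 101) and read 215, 667, 618, 493 and 821 at 40 weeks. All 40-week libraries were above all 10-week ones (2.59 ± 0.51, adjusted P = 0.00133), although reads of Hspa1a and its near-identical copy Hspa1b may be divided between them by the counting. Bag3, the co-chaperone that directs damaged sarcomere proteins to autophagy, moved from 1944 to 2437 (median 2045) to 3550, 4090, 4536, 3441 and 4120, again without overlap (0.96 ± 0.16, adjusted P = 0.000164). Hspb8, the small heat shock protein that works with BAG3, was 4891 to 10871 (median 5831) and then 10576, 12391, 14620, 17055 and 16626. Its one overlap was 10-week replicate 5, and the rise was 1.10 ± 0.19 (adjusted P = 0.00041). Hspa1l rose by 1.47 ± 0.20, but 71.9% of its exon bases overlap the gene model Gm10501. Hspb1 rose by 1.16 ± 0.33 (adjusted P = 0.0238), with 1196 to 3295 at 10 weeks and 2579, 7886, 3773, 4242 and 4986 at 40 weeks. It was not called without the 3 libraries (adjusted P = 0.0705) or within Novogene (adjusted P = 0.238). Within Novogene 4 members of the list were called and the median was 0.36, and without the 3 libraries 10 were called with a median of 0.55. In KO 7 members rose, in WT 0 changed, and for 3 members the age change in KO+AAV differed from that in WT. Over all 16199 genes 656 rose and 690 fell in KO, and 24 (0.148%) changed in WT. The age change differed between KO+AAV and WT for 104 genes (0.642%). The KO and WT counts of the lists below stand against these numbers as well.

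The promoters of Hspa1a and Hspb1 are shown because their genes moved together and because both hold GAANNTTC, the inverted pair of heat shock element units, which is marked in capitals. This motif was chosen after the heat shock genes had been seen to change. It occurred on either strand, 250 bases before to 50 after the start, in 11 of the 20 heat shock list genes with a RefSeq promoter (55%) and in 780 of 11123 tested genes with one (7.01%). The windows are 250 bases up to the start in GRCm38.p6, at chr17:34972157-34972406 on the minus strand for Hspa1a and chr5:135887669-135887918 on the plus strand for Hspb1:
Hspa1a: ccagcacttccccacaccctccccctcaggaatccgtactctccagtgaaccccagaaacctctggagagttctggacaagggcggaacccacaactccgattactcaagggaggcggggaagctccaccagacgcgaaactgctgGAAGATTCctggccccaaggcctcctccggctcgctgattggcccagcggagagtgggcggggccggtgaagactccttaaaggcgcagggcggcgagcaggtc
Hspb1: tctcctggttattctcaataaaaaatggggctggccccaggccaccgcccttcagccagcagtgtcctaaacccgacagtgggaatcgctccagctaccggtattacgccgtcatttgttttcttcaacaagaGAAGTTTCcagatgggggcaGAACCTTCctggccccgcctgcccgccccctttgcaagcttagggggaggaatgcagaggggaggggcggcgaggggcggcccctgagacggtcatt

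The E-box CACGTG occurred in the promoters of 12.9% of the genes that rose, 9.15% of those that fell and 11.4% of all tested genes. The D-box TTANGTAA was in 1.02%, 3.05% and 1.83% of the same sets, and the REV-ERB/ROR element TAGGTCA in 3.22%, 2.4% and 2.26%. Among the 23 clock list genes with a promoter, 34.8% held the E-box and 0 held GAANNTTC. These shares describe letters in a window and are no measure of binding.

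In the list of p53 and senescence genes, 5 of 20 tested members rose, 2 fell and 13 did not pass, with a median of 0.32, against 4.67% higher and 3.86% lower over all genes. Eda2r, a TNF-receptor family member and p53 target, ranged from 266 to 871 at 10 weeks (median 386) and read 1425, 3453, 1672, 1567 and 2501 at 40 weeks (2.28 ± 0.30, adjusted P = 1.24e-05). Mdm2, the ubiquitin ligase that limits p53, was 886 to 1189 (median 994) and then 1211, 2028, 1544, 1607 and 1773 (0.81 ± 0.13, adjusted P = 0.00011). Cdkn1a encodes the cell cycle inhibitor p21. It was 583 to 2136 in young muscle (median 1255) and 4015, 7844, 4548, 4225 and 6882 in old muscle, a rise of 2.26 ± 0.40 (adjusted P = 0.000557). The pro-apoptotic gene Bbc3 rose by 1.86 ± 0.30 (adjusted P = 0.000161). For all 4 genes every 40-week library was above every 10-week library. These 4 were named for the lowest P in the list, so their separation is a description. Over all tested genes, which were not so chosen, 952 (5.88%) did not overlap between the ages in either direction. Within Novogene and without the 3 libraries 5 members rose and 1 fell, with medians of 0.24 and 0.37. In KO 5 members rose and 1 fell, with a median of 0.12, and in WT 0 changed. Over all genes 8.31% changed in KO and 0.148% in WT. In WT muscle the log2 fold change of Cdkn1a was -0.056 ± 0.41, and the difference from KO+AAV passed the test (2.31 ± 0.53, adjusted P = 0.03).

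Of 29 antioxidant and NRF2 target genes 4 rose and 0 fell, with a list median of 0.15, against 4.67% higher over all genes. Within Novogene 2 were called and without the 3 libraries 3. In KO 3 of these 29 genes rose, with a median of 0.25. Nqo1, the quinone reductase that serves as a marker of NRF2 activity, was 246 to 419.6 at 10 weeks (median 319.6) and 830.4, 905, 756, 566 and 645 at 40 weeks, without overlap (1.08 ± 0.16, adjusted P = 3.70e-05). Sulfiredoxin (Srxn1) rose by 1.02 ± 0.23 and glutathione reductase (Gsr) by 0.56 ± 0.14, both highest in 40-week replicate 2, at 1700 and 1142. Gpx4, which reduces lipid peroxides, rose by 0.41 ± 0.10.

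In the NF-kappaB list 6 of 23 tested members rose and 0 fell (median 0.18), against 4.67% higher over all genes, and 3 rose within Novogene. Nfkb2, the precursor of the p52 subunit, stood at 191 to 470.1 at 10 weeks (median 258), its highest value coming from replicate 5, and at 492, 504, 601, 534 and 624 at 40 weeks (1.02 ± 0.19, adjusted P = 0.000654). Map3k14, the kinase NIK of the same non-canonical branch, went from 99.8 to 178 (median 137) to 226, 351, 289.5, 236 and 379 (0.90 ± 0.16, adjusted P = 0.000717). Relb, the partner of p52, rose by 0.84 ± 0.19 (adjusted P = 0.00474). Icam1, an adhesion molecule for leukocytes, rose by 1.34 ± 0.28, with 209, 68.8, 145, 143 and 101 at 40 weeks and the lowest of these in replicate 2. The count was 5 without the 3 libraries and 3 within Novogene, with medians of 0.30 and 0.12. In KO 2 members rose, with a median of 0.22.

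**Figure D4:**
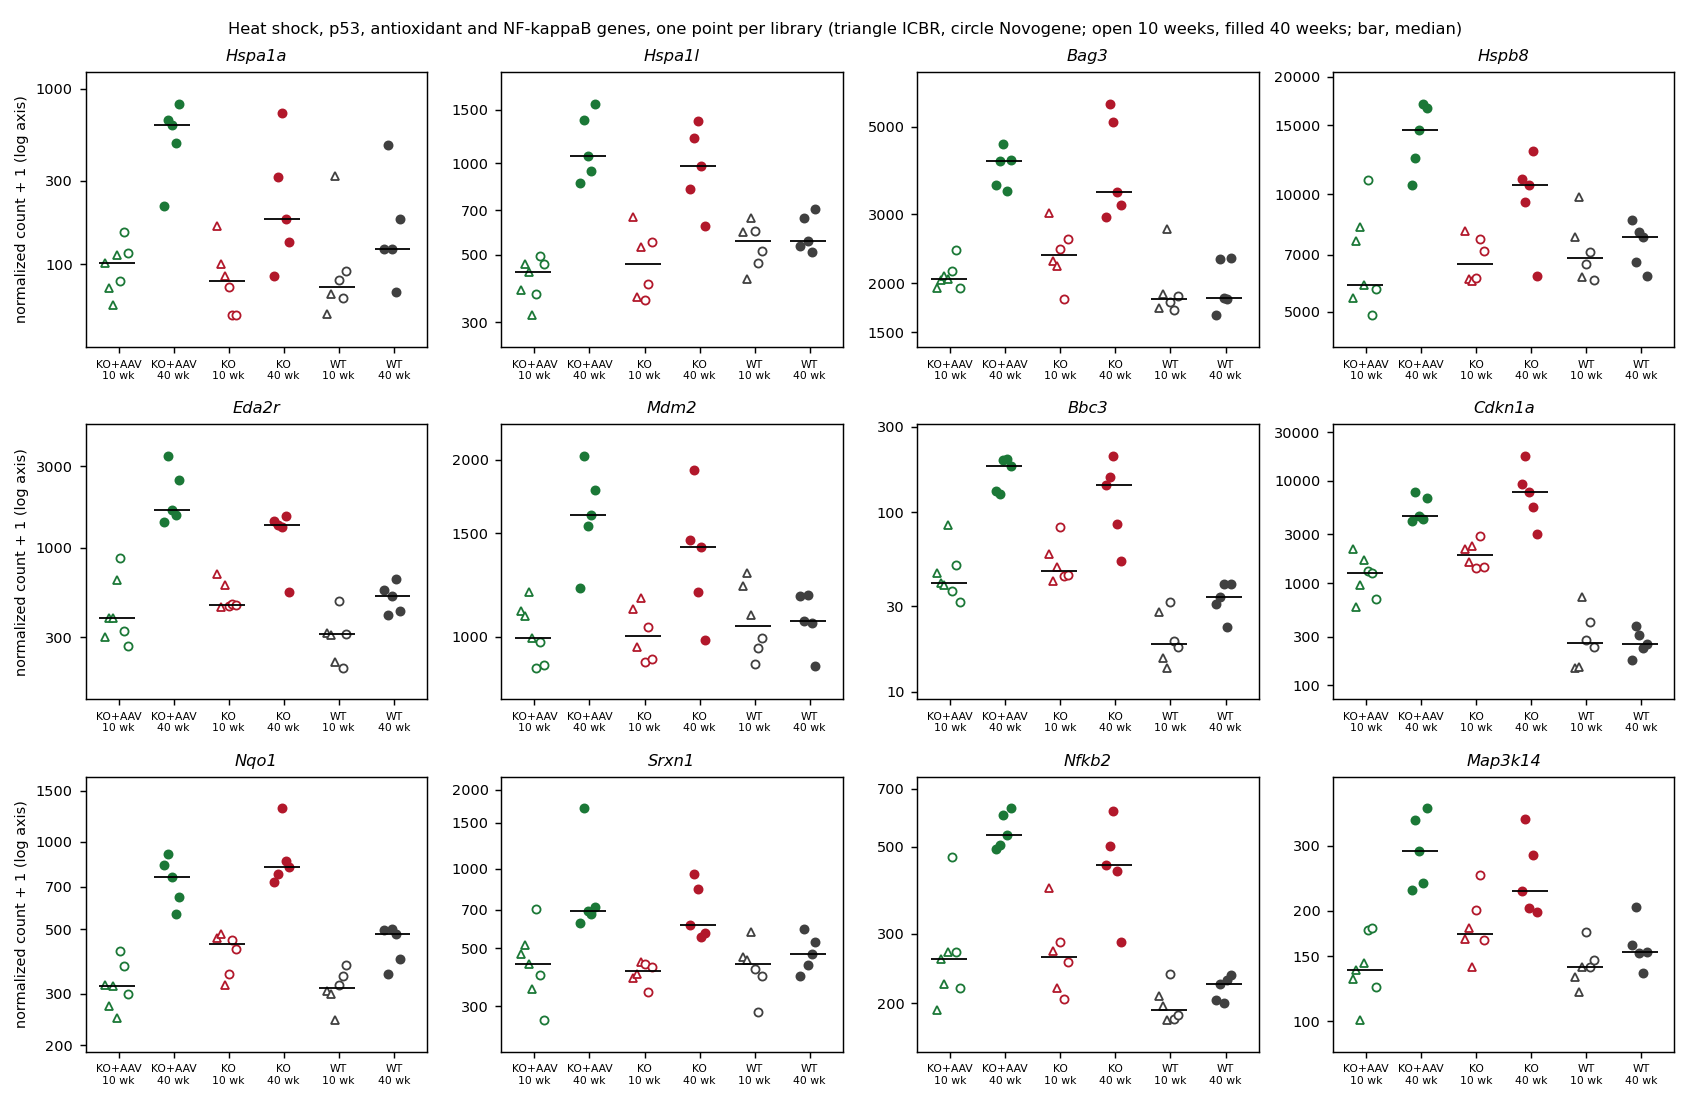
Normalized counts plus 1 (log axis) of 12 heat shock, p53, antioxidant and NF-kappaB genes in every library, by genotype and age, with the median as a bar. In KO+AAV the 40-week points of Hspa1a, Bag3, Eda2r, Cdkn1a and Nqo1 lie above all 10-week points, and in WT the points of the 2 ages overlap for all 12 genes.

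Lists of immune genes had medians below 0, with few members past the test. Of 18 macrophage markers 1 fell and the median was -1.16. DESeq2 on the recovered reads called 9 of them, all lower. Over all 16199 genes limma called 4.67% higher and 3.86% lower, and DESeq2 called 995 higher and 963 lower. These numbers are the background for the other immune lists too. The median was -1.73 within Novogene and -0.60 without 10-week replicate 5, and it was -0.10 with 0 calls without the 3 libraries. For MHC class II the median of 7 tested genes was -0.91 with 0 calls, and -0.02 without the 3 libraries. The TNF list (24 tested, 1 higher, 1 lower) moved from -0.65 to -0.0031, and the chemokine list (21 tested, 2 higher, 1 lower) from -0.85 to -0.19. In DESeq2 1 TNF member was called higher and 8 lower, and 2 chemokine members were called higher and 6 lower. The medians of these lists moved with the marker sums of the 3 libraries, and the part of cell content in them was not tested. Mrc1, the mannose receptor of resident macrophages, ranged from 167 to 563 at 10 weeks (median 212) and read 66.9, 30.9, 95.4, 104 and 134 at 40 weeks, all lower than at 10 weeks (-1.73 ± 0.37, adjusted P = 0.00342, but 0.0813 without the 3 libraries). The antigen-presenting gene H2-Aa read 206, 26.7, 257, 218 and 322 at 40 weeks, with replicate 2 far below the rest, against 203 to 598 at 10 weeks, and was not called.

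Single chemokine genes moved in both directions. Cxcl10, an interferon-inducible ligand of CXCR3, was 0.494 to 7.97 at 10 weeks (median 4.2) and 52.6, 28.1, 122, 125 and 59.9 at 40 weeks, without overlap (4.001 ± 0.72, adjusted P = 0.000537, and 0.00187 without the 3 libraries). Ccl7, a monocyte attractant, fell by 3.34 ± 0.75. It read 159 in 10-week replicate 5 against 0.988 to 11.9 in the other 10-week libraries, was at 0 in 4 of 5 libraries at 40 weeks, and was not called without the 3 libraries (adjusted P = 0.0611). The complement receptor gene C5ar1 (-2.37 ± 0.72) and the kinase gene Syk (-1.30 ± 0.37) fell but were not called without those libraries (adjusted P = 0.392 and 0.332). In the TNF list the member that rose was Hspb1, a small heat shock protein. Of 33 interferon-stimulated genes 2 fell, the RNA sensor Ifih1 (-0.71 ± 0.19) and tetherin (Bst2, -0.86 ± 0.27), and the list median was -0.49. Over all genes 3.86% were lower, and 0 of these 33 were called within Novogene or without the 3 libraries. In KO 7 of the 33 fell, with a median of -0.65, and in WT 0 changed, against 8.31% and 0.148% of all genes changed. Of 15 MHC class I genes 2 fell, the trimming peptidase Erap1 (-0.33 ± 0.079) and H2-D1 (-0.55 ± 0.14). Within Novogene 0 of these 15 were called, and without the 3 libraries 1 was. Among 5 tested lymphocyte and plasma cell markers, the immunoglobulin gene Ighg2c rose from 0 to 2.80 at 10 weeks to 4.78, 37.9, 19.97, 18.3 and 10.8 at 40 weeks (3.31 ± 0.53). Cd3e, of the T cell receptor complex, fell by 2.41 ± 0.58 at levels of at most 15.8.

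Of 23 collagen genes 14 fell, 0 rose and 9 did not pass, and all 23 had a negative log2 fold change, with a median of -1.22, against 3.86% lower over all genes. Without 40-week replicate 2 alone 6 collagens fell. Col1a1, the main fibrillar collagen chain, ranged from 4011 to 49980 at 10 weeks (median 5266), the highest being replicate 4, and read 1208, 257, 1933, 2457 and 1837 at 40 weeks. Every 40-week value was below every 10-week value (-2.45 ± 0.58, adjusted P = 0.00694). Col6a6, a chain of the collagen VI network around fibers, was 68.2 to 259 (median 135) and then 49.4, 11.2, 53.2, 44.2 and 47.9 (-1.81 ± 0.41, adjusted P = 0.0056). The basement membrane chain Col4a1 fell by 1.01 ± 0.24 and Col6a2 by 1.63 ± 0.40. Without the 3 libraries 5 of 23 collagens were called and the median was -0.76, and within Novogene 1 was called and the median was -1.07. In KO 7 fell, with a median of -0.90, and the WT median was -0.36 with 0 calls. Over all genes 8.31% were called in KO and 0.148% in WT.

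Matrix proteins and enzymes gave 7 lower and 0 higher of 30 (median -0.80, and -0.38 without the 3 libraries, where 1 was lower and 1 higher), and within Novogene 1 was lower. Over all genes 3.86% were lower and 4.67% higher. Sparc, a collagen-binding glycoprotein, read 2617, 1679, 3593, 3854 and 3829 at 40 weeks against 5886 to 31438 at 10 weeks (median 7172), again without overlap (-1.42 ± 0.33, adjusted P = 0.00674). The protease inhibitor Timp2, the collagen chaperone Serpinh1 and the lysyl oxidase Loxl2 fell by 0.84, 1.01 and 1.23. The fibroblast and tenocyte markers moved with these genes, with 2 of 13 lower (Col15a1, -1.59, and Cd34, -1.15), a median of -1.04, and summed levels of 7766 to 29166 at 10 weeks and 3112 to 10361 at 40 weeks. Within Novogene and without the 3 libraries 0 of the 13 markers were called. Their part in the collagen counts was not tested.

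The imprinted growth network, a set of imprinted genes with high expression in early life, had 7 of 18 members lower and 0 higher (median -0.87). Over all genes 3.86% were lower and 4.67% higher. Meg3, a maternally expressed long noncoding RNA, ranged from 416 to 2992 at 10 weeks (median 571) and read 170.5, 102, 166, 289.9 and 232 at 40 weeks (-1.87 ± 0.33, adjusted P = 0.000537). Rian, from the same cluster on chromosome 12, was 282 to 2633 (median 472) and then 102, 94.03, 128, 156 and 118 (-2.06 ± 0.38). Plagl1, the zinc finger factor that regulates the network, fell by 2.23 ± 0.41 (adjusted P = 0.000722). Grb10, which dampens insulin and IGF receptor signalling, was 1147 to 1981 and then 674, 674, 734, 674 and 662 (-0.9972 ± 0.14, adjusted P = 3.69e-05). None of these 4 genes overlapped between the ages, as was the case for 5.88% of all tested genes. The 4 were named for the lowest P in the list, so their separation is a description. Within Novogene and without the 3 libraries 5 members were called, all lower, with medians of -0.68 and -0.77. In KO 2 members fell and 1 rose.

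In the IGF and growth axis 2 of 20 genes rose and 3 fell, against 4.67% and 3.86% over all genes. Within Novogene 2 rose and 0 fell, and without the 3 libraries 2 rose and 1 fell. Fst, follistatin, the inhibitor of myostatin, was 34.1 to 196 at 10 weeks (median 66.95) and 223, 135, 232, 258 and 252 at 40 weeks (1.51 ± 0.35, adjusted P = 0.00601), overlapping at 10-week replicate 4 alone. Igf1 read 110, 50.5, 197, 247 and 179 at 40 weeks against 252 to 742 (-1.19 ± 0.33, adjusted P = 0.0192, and 0.31 without the 3 libraries). The binding protein genes Igfbp2 and Igfbp7 moved apart, by 2.62 ± 0.72 and -0.82 ± 0.21. Among 24 myokines 2 rose and 6 fell, against 4.67% and 3.86% over all genes, but 3 fell within Novogene, 2 fell without 40-week replicate 2 and 1 without the 3 libraries. Ostn, encoding the secreted peptide musclin, was 264 to 557 (median 362) and then 2471, 1040, 1862, 2647 and 2566 (2.25 ± 0.35, adjusted P = 0.000105), and its change in WT was 1.70 ± 0.35.

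Slow fiber genes had 2 of 13 higher, Sln and phospholamban (Pln), and a median of 0.04 that ran from -0.30 within Novogene to 0.25 without the 3 libraries. The count was 1 within Novogene and 2 without the 3 libraries, and over all genes 4.67% were higher. Pln read 238, 42.1, 702, 114 and 155 at 40 weeks against 10.3 to 48.8 at 10 weeks (2.25 ± 0.59, adjusted P = 0.0142), and 59.6% of its exon bases overlap Gm47644. The slow myosin light chain gene Myl2 read 2667, 575, 4650, 772 and 1335 at 40 weeks and 93.5 to 2706 at 10 weeks, and the ages overlapped (1.33 ± 1.001, adjusted P = 0.446). Fast fiber genes had 2 of 15 lower, both calcium buffers, and 13 of 15 negative, with a median of -0.28 (-0.41 without the 3 libraries and -0.13 within Novogene). Within Novogene and without the 3 libraries 0 were called, and over all genes 3.86% were lower. Calsequestrin 1 (Casq1) was 38408 to 73802 (median 56702) and then 30922, 15968, 27819, 34670 and 28334 (-1.04 ± 0.25, adjusted P = 0.00773), and parvalbumin (Pvalb) fell by 0.94 ± 0.30. Without the 3 libraries their adjusted P were 0.0575 and 0.132. Myoglobin (Mb), the oxygen store of oxidative fibers, rose by 1.48 ± 0.40 (adjusted P = 0.0179). Mb was not called within Novogene, without the 3 libraries or without 10-week replicate 5 alone.

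Of 18 developmental and regeneration genes 3 rose and 2 fell, with a median of 0.72, against 4.67% higher and 3.86% lower over all genes. Within Novogene 3 rose and 1 fell, and without the 3 libraries 4 rose and 1 fell. In KO 8 rose and 2 fell, with a median of 0.74. Ankrd1, a stress-responsive titin-binding repeat protein, ranged from 226 to 1021 at 10 weeks (median 497) and read 1921, 3302, 5019, 4224 and 5336 at 40 weeks, all higher (2.98 ± 0.41, adjusted P = 1.89e-05). Embryonic myosin (Myh3) was 12.6 to 653 (median 55.8), with replicate 4 the highest, and then 492, 215, 733, 418 and 816 (3.22 ± 0.74, adjusted P = 0.00603). Myf6, the myogenic factor of mature fibers, rose by 0.64 ± 0.19, and Myf5, a marker of satellite cells, fell by 0.97 ± 0.31. In the satellite cell list Myf5 was the 1 of 10 members called. Neuromuscular junction and denervation genes gave 4 higher and 0 lower of 24, against 4.67% higher and 3.86% lower over all genes. Within Novogene 3 were higher, without the 3 libraries 5, and in KO 4. Besides Cdkn1a the 4 called in KO+AAV were Hdac4 (0.55 ± 0.12), the receptor subunit Chrnb1 (0.47 ± 0.13) and Runx1 (1.43 ± 0.42). Schwann cell markers stood beside them with 0 of 11 called, a list median of 0.68, and sums of 1208 to 3784 at 10 weeks and 1138 to 6024 at 40 weeks, and their part in the junction genes was not tested. Of 27 atrophy and FOXO target genes 4 rose and 0 fell (median 0.43), against 4.67% higher over all genes. Without 40-week replicate 2 alone 2 were called and the median was 0.24, and within Novogene 2 were called. Without the 3 libraries 2 were called as well. In KO 6 members rose, with a median of 0.64. The ubiquitin ligase Fbxo30 read 392, 463, 561, 374 and 461 at 40 weeks against 216 to 272 at 10 weeks (0.97 ± 0.18, adjusted P = 0.000955). The stress sensor Sesn3 rose by 1.17 ± 0.24, and the autophagy genes Map1lc3a and Sqstm1 rose by 0.43 ± 0.12 and 0.69 ± 0.22.

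Energy metabolism changed at single genes. In the list of glucose uptake, glycolysis and glycogen, 5 of 39 genes rose and 3 fell (median -0.13), and within Novogene 2 rose and 1 fell. Without the 3 libraries 2 rose and 3 fell, and over all genes 4.67% were higher and 3.86% lower. Glycogen synthase (Gys1) was 5286 to 7364 at 10 weeks (median 6417) and 10646, 11104, 9764, 8338 and 10011 at 40 weeks, all higher (0.65 ± 0.12, adjusted P = 0.000865). The glycogen branching enzyme Gbe1 rose by 1.04 ± 0.21 (adjusted P = 0.0022). The glycolytic genes Eno1 and Pgk1 fell, Eno1 from 1234 to 2375 (median 1995) to 1211, 599, 1165, 1096 and 1014, by 0.85 ± 0.16, and Pgk1 by 0.66 ± 0.15. Fatty acid oxidation had 1 of 33 genes higher, the trifunctional protein subunit Hadhb (0.68 ± 0.19, and 0.52 with adjusted P = 0.189 without the 3 libraries), while 30 of 33 had a positive change and the list median was 0.35. In the TCA cycle (19 genes), complex I (36), complexes III to V (38) and the mitochondrial genome (14) limma called 0 genes, with list medians of -0.10, -0.08, -0.09 and 0.12. At an unadjusted P under 0.05 these 4 lists held 10 genes, and DESeq2 and edgeR called 2 and 0. Lipogenesis had 2 of 19 lower, the desaturases Fads1 (-0.93 ± 0.28) and Fads2 (-0.97 ± 0.29), against 3.86% lower over all genes. Without 40-week replicate 2 none was called and the list median turned from -0.11 to 0.14, and none was called within Novogene or without the 3 libraries. Of 49 chromatin regulators 6 rose and 4 fell, against 4.67% and 3.86% over all genes. Without 40-week replicate 2 the counts were 2 and 3, within Novogene 1 and 2, and without the 3 libraries 1 and 4. Among those that fell were Dnmt3a (1648 to 2205 at 10 weeks and 1127, 629, 1080, 1048 and 1263 at 40 weeks, -0.82 ± 0.17, adjusted P = 0.00223), Tet1 (-2.95 ± 0.62) and Tet3 (-0.60 ± 0.12).

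**Figure D5:**
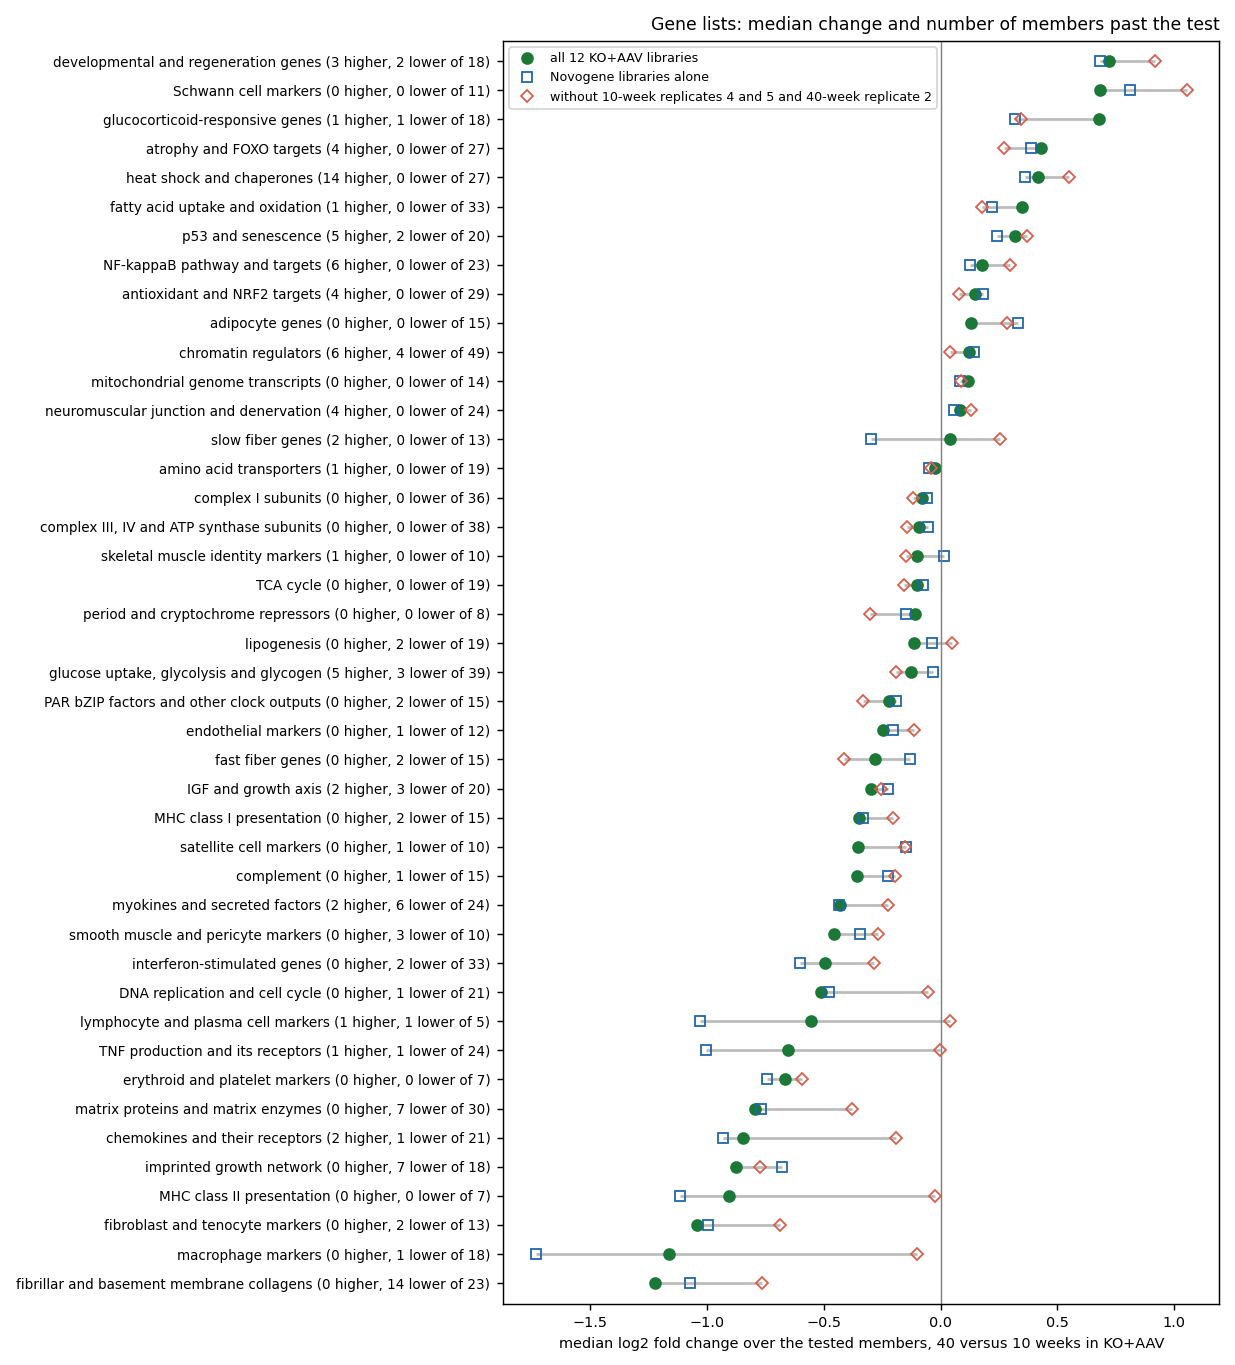
Median log2 fold change (40 versus 10 weeks in KO+AAV) of each gene list with at least 5 tested members, in all 12 libraries, in the Novogene libraries alone and without 3 libraries that stand apart, with the number of members called. Heat shock, p53, imprinted and collagen lists keep their side of 0 in all 3, whereas the macrophage median moves from -1.16 to -0.10 and the MHC class II median from -0.91 to -0.02.

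The age change was then set beside that of KO and WT muscle. In KO 1346 of 16199 genes (8.31%) changed, and in WT 24 (0.148%). KO 40-week replicate 2 was the farthest from its group, by a root-mean-square log2 difference of 1.025. Without it 472 genes were called in KO and 2026 in KO+AAV. The overlap below and the KO counts of the gene lists above include that library. The comparisons share no library, but in the joint fit they share the site term and the estimate of the spread of each gene. Of the 1382 genes called in KO+AAV, 578 were also called in KO, which is 41.8% of the KO+AAV genes and 42.9% of the KO genes, and all 578 moved in the same direction. Within Novogene, where the estimate of the spread is still shared but no site term is, 134 genes were called in both. These were 37.1% of 361 and 34.3% of 391, again all in the same direction. The genes called higher in KO+AAV had a median log2 fold change of 0.73 there, 0.49 in KO and 0.16 in WT. For those called lower the medians were -0.94, -0.63 and -0.21. The KO+AAV medians are of genes chosen for their size in KO+AAV, so the smaller values elsewhere are a description.

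The difference from WT was tested gene by gene, and 104 genes (0.642%) had a different age change, 81 with a more positive and 23 with a more negative change in KO+AAV. Dupd1 read 2931 to 5272 at 40 weeks in KO+AAV and 328 to 458 in WT, and it fell short of a call in WT (-0.76 ± 0.23). The difference was 2.51 ± 0.30 (adjusted P = 2.35e-05). Cx3cl1 in WT ranged from 32.0 to 59.05 at 10 weeks and from 28.2 to 73.5 at 40 weeks, so that the WT ages overlapped, and its difference was 2.73 ± 0.37 (adjusted P = 0.000147). Both remained past the threshold within Novogene, where 3 genes did (adjusted P = 0.012 and 0.0348). Ptpn14, Cntn2 and the membrane receptor gene Tpra1 also differed, by 0.93, 4.29 and 0.86. None of these 3 was called within Novogene (adjusted P = 0.207, 0.108 and 0.0908), and Cntn2 was not called in edgeR (adjusted P = 0.0808) and differed by 2.59 at a pseudocount of 5.

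Of the more negative differences, those with the smallest P were Castor2 (-1.20 ± 0.20), the leukocyte cytoskeletal gene Lsp1 (-1.34 ± 0.25), leptin (Lep, -5.69 ± 1.06), the ATP synthase assembly factor gene Fmc1 (-0.81 ± 0.16) and the glutamate transporter gene Slc17a7 (-3.39 ± 0.68). Lep, an adipocyte hormone gene, read 7.97, 1.4, 6.66, 15.3 and 20.4 in KO+AAV at 40 weeks and 53.4, 352, 278, 421 and 37.5 in WT at 40 weeks, the WT libraries all higher. The adipocyte list, which includes Lep, had 0 of 15 members called in KO+AAV, with log2 fold changes from -1.545 to 1.336. In WT 1 member of the list was called, and it was higher at 40 weeks. The summed levels of the list in KO+AAV were 26770 to 51400 at 10 weeks and 41011 to 55382 at 40 weeks. Castor2 in WT had a log2 fold change of 0.10 ± 0.16 against -1.09 ± 0.16 in KO+AAV and -1.06 ± 0.16 in KO. These 5 were not called within Novogene, where their adjusted P ran from 0.2045 to 0.373.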

How the data were processed

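RNA-seq of gastrocnemius was analysed in 34 libraries, of which the 12 KO+AAV libraries are described. According to the study's methods and the labels, the authors aligned poly(A) reads with HISAT2 to GRCm38, counted reads per gene with HTSeq and divided the counts by DESeq2 size factors; the deposited signal values are these normalized counts. Dividing by what 1 read is worth gave whole reads (tolerance 0.01) for 100% of the values in every library. Of 55401 genes, the 16199 with a mean above 5 were tested on log2(normalized count + 1) in limma 3.58.1 (R 4.3.3), with 6 groups of genotype and age and the sequencing site as terms, and Benjamini-Hochberg adjustment. The site term passed the adjusted threshold for 3726 genes (23%), and it assumes the same site difference at both ages. Genes that overlap another gene on either strand share reads with it where the counting did not separate them. The tests were checked on simulated data. The labels do not say that libraries came from separate animals, so P values measure the spread between these libraries. No library was a duplicate of another (lowest chi-square per degree of freedom 13.5).

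The members and the 48 gene lists were chosen with earlier results of these data known; 1 gene is not reported here and was left out of its list. Named genes were the clock list members, for each direction 10 genes, lowest P first, that also did not overlap within Novogene (2169 genes, 13.4%, did not) and had the same sign there, up to 4 members of each list by lowest P, and for each interaction 5 genes per direction by lowest P; symbols without a gene name were passed over, and some further list members were named after their values were seen. edgeR 4.0.16 and DESeq2 1.42.0 on the recovered reads, other pseudocounts, filters and scalings, Novogene libraries alone, a replicate block and fits without single libraries were alternatives. The fit without 10-week replicates 4 and 5 and 40-week replicate 2, the fit without KO 40-week replicate 2 and the motif GAANNTTC were chosen after seeing the data.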

Additional observations from a re-analysis of the deposited data

Results flagged for a closer look

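Of 286 sets of replicate values examined, 47 held a library whose gap to its nearest neighbour was wide for the range of its group, and chance gives about 1 in 20. Of these, 40 came from 3 libraries. In 40-week replicate 2 the highest values of the group were those of Cry2 (2515 normalized counts), Ciart (73), Rora (3142), Lonrf3 (37.9), Srxn1 (1700), Gsr (1142), Erap1 (432) and Sqstm1 (22446), and the lowest were those of Col6a6 (11.2), Col6a2 (135) and Fst (135). Ten-week replicate 4 was highest for the matrix genes Col1a1 (49980), Col4a1 (11135), Col6a2 (3879), Col15a1 (2339), Sparc (31438), Timp2 (3718), Serpinh1 (2351) and Loxl2 (917). It was also highest for Cd34 (1661), Meg3 (2992), Plagl1 (106), Grb10 (1981), Bbc3 (84.2), Fst (196), Myh3 (653) and Fads2 (155), and for the summed fibroblast (29166) and smooth muscle (13684) markers. Ten-week replicate 5 was highest for Lonrf3 (44.2), Hspb1 (3295), Gsr (517), Nfkb2 (470), Ccl7 (159), C5ar1 (68.2), Runx1 (254) and Ctsb (10444), for the summed macrophage (12098) and neutrophil (114) markers, and lowest for Klhl33 (2966).

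The other wide gaps were Bag3 (2437), Gbe1 (1123) and Hadhb (8169) in 10-week replicate 6, Bhlhe41 (1485) in 10-week replicate 3, Grb10 (734) and Ccl7 (1.11) in 40-week replicate 3, and Cd3e (9.16) in 40-week replicate 4. Their causes were not tested.

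Age changes that differed between genotypes in the interaction test of limma were, for KO+AAV minus KO, Mylk4 (3.34 on the log2 scale). For KO+AAV minus WT the change was more positive for Cx3cl1 (2.73), Nfe2l1 (0.73), Ptpn14 (0.93), Trp63 (1.22), Ripply1 (3.78), Cpne2 (1.85), Sln (4.82), Cntn2 (4.29), Tnfrsf23 (1.58), Dupd1 (2.51) and Tpra1 (0.86). It was also more positive for the stress and muscle genes Hspa1l (1.31), Bag3 (0.88), Hspb8 (1.02), Mdm2 (0.68), Cdkn1a (2.31), Ankrd1 (2.28) and Fbxo30 (0.99). More negative changes in KO+AAV than in WT were those of Klhl33 (-1.73), Castor2 (-1.19), Grb10 (-0.83), Sdc2 (-1.36), Cd3e (-3.12), Lsp1 (-1.34), Lep (-5.69), Fmc1 (-0.81) and Slc17a7 (-3.39).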

How the results depend on the processing

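No called gene examined singly changed direction under the alternatives run. Of the 48 list medians, 20 had another sign under at least 1 alternative, 10 of them with the replicate block, among them interferon-stimulated genes (-0.49 to 0.05), MHC class I (-0.35 to 0.17, with 2 members higher), the TCA cycle (-0.10 to 0.20), complex I (-0.08 to 0.13) and complexes III to V (-0.09 to 0.14). The Arntl difference within Novogene kept its direction under all 10 alternatives. Of 1958 genes at P under 0.01 (1041 higher, 917 lower), Novogene libraries alone gave 1143 (692 and 451), KO+AAV libraries alone with site 1084 (678 and 406), Novogene KO+AAV libraries alone 986 (626 and 360), and the fit without the 3 libraries 1295 (529 lower). Of the 1382 genes past adjusted P, these gave 361, 286, 182 and 649, and no site term gave 2088. Leaving out single KO+AAV libraries gave 1351 to 2004 genes at P under 0.01 (790 to 1045 higher, 561 to 959 lower) and 702 to 1396 past adjusted P, the lowest without 40-week replicate 2. The 1 gene that differed from KO was 0 without a filter, in edgeR, with library weights, without a site term, in Novogene alone, with the replicate block and without the 3 libraries, 2 at a mean above 50 or with TMM, 5 in DESeq2 and 0 to 2 without single libraries. The 104 that differed from WT were 233 in DESeq2, 466 with weights, 58 without a site term, 3 in Novogene alone, 192 without KO 40-week replicate 2 and 53 to 135 without single libraries. Of 97 called genes examined singly, 58 lost the call in Novogene KO+AAV libraries alone, 53 in KO+AAV libraries alone with site, 38 in Novogene alone, 30 without the 3 libraries, 25 without 40-week replicate 2, 14 without 10-week replicate 5, 12 without 10-week replicate 7 and 11 without a filter. With a mean above 50 the neutrophil, keratinocyte and hepatocyte lists held no tested gene and gave no value. The causes were not tested, beyond the smaller number of libraries.

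Replicate numbers are shared by the ages without a stated link. Correlations of same-numbered libraries ran from -0.198 to 0.177, and 1 of 5 numbers correlated best with its own. A replicate block gave 895 genes at P under 0.01 (434 higher, 461 lower), 115 past adjusted P, and 74 of the 97 calls lost.

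All 40-week libraries came from 1 site, so the comparison over 12 libraries rests on a site term from other ages, and the Novogene comparison rests on 3 libraries at 10 weeks. Depth at Novogene limits genes under about 5 normalized counts.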
